A study of Mus musculus with 8 samples.

Results

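Translation initiation and elongation factors are the proteins that assemble ribosomes on messenger RNAs and drive them along the coding sequence. They were taken here as every gene whose platform symbol begins with Eif1 to Eif6, Eef1 or Eef2, without the Eif2ak kinases, Eif4enif1 and pseudogenes, and with 1 single-gene probe set per gene, the brightest over all arrays. This gave 56 of the 19938 genes measured. The rule uses names and no measured value. Eif3j1, Eif3j2 and Eif4ebp3 occurred only in probe sets shared by several genes and were not analysed here. Eif1, Eif2s1, Eif3g, Eif4g1 and Eef1g were not among the 56 either.

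Hemophagocytes (4 arrays, numbered 2, 3, 5 and 6) came from male C57Bl/6j mice of wild-type genotype, aged 8 weeks, given 4 intraperitoneal doses of 37.5 ug CpG1826, a Toll-like receptor 9 ligand, with 200 ug of antibody clone 1B1.3A, which blocks the IL-10 receptor. Resting splenic macrophages (4 arrays, numbered 3 to 6) came from mice of the same strain, sex and age given 4 doses of 200 uL PBS. Both were laser-captured from spleen touch preparations as pools of 20 cells per mouse, and their RNA was amplified before hybridisation to Affymetrix mouse Gene ST 1.0 arrays. The treated mice contributed no arrays of macrophages without engulfed cells, so engulfment and treatment cannot be told apart. In such pools, fewer cells of a type and less RNA per cell cannot be told apart either.

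As background, initiation begins when eIF2 brings the initiator tRNA to the small ribosomal subunit, helped by eIF1, eIF1A and the large eIF3 scaffold. The eIF4 proteins bind the messenger's cap and unwind its leader, eIF5 and eIF5B complete subunit joining, and eEF1A and eEF2 then deliver aminoacyl-tRNAs and move the ribosome. In macrophages, Toll-like receptor signals are known to act on this machinery through phosphorylation of eIF4E, the 4E-BP inhibitors and eIF2, which arrays of transcripts do not measure.

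Transcripts of the 56 factors showed no difference between hemophagocytes and resting macrophages that passed the test. After Benjamini-Hochberg adjustment over all genes at a threshold of 0.05, limma called 0 of 56 factors, against 2 of 19938 genes, or 0.01%, over the whole table. At an unadjusted p under 0.05, 0 factors were higher in hemophagocytes (1.53% of all genes) and 1 was lower (5.05% of all genes), which was Eef1e1. The values of the groups overlapped in all 56 factors, while over all genes 0.802% had every hemophagocyte array above every resting array and 2.9% the reverse. The smallest adjusted p of any factor was 0.75.

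Changes were small in both directions. The median change over the factors, hemophagocyte minus resting macrophage, was -0.01 on the log2 scale, with 27 of 56 above 0, against -0.04 and 36.1% over all genes. These signs depend on scaling, with 32 of 56 factors above 0 after quantile normalization and 33 of 56 after either median centring or cyclic loess, and with a median of 0.034 after quantile normalization, 0.019 after median centring and 0.035 after cyclic loess. Over all genes the share above 0 was then 47.3% with a median of -0.0070 after quantile normalization, 47.1% with -0.0076 after median centring and 50.7% with 0.0018 after cyclic loess. Of the 56 factors, 54 (96.4%) had a 95% interval of the change inside plus or minus 1, a range that leaves out a 2-fold difference, and 50 (89.3%) inside plus or minus 0.5. Over all genes these shares were 98.8% and 92.5%. The 6 factors with wider intervals were Eef1a1, Eif1ax, Eif2s2, Eif3k, Eif4a3 and Eif4ebp1, and in each of them 1 or 2 arrays stood far from the others. The intervals are per gene and are not adjusted for the number of genes. They describe array signal, and 49 factors had no probe set above the background level described below on any array. For those, an interval near 0 does not exclude a 2-fold difference in the transcript.

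**Figure D1:**
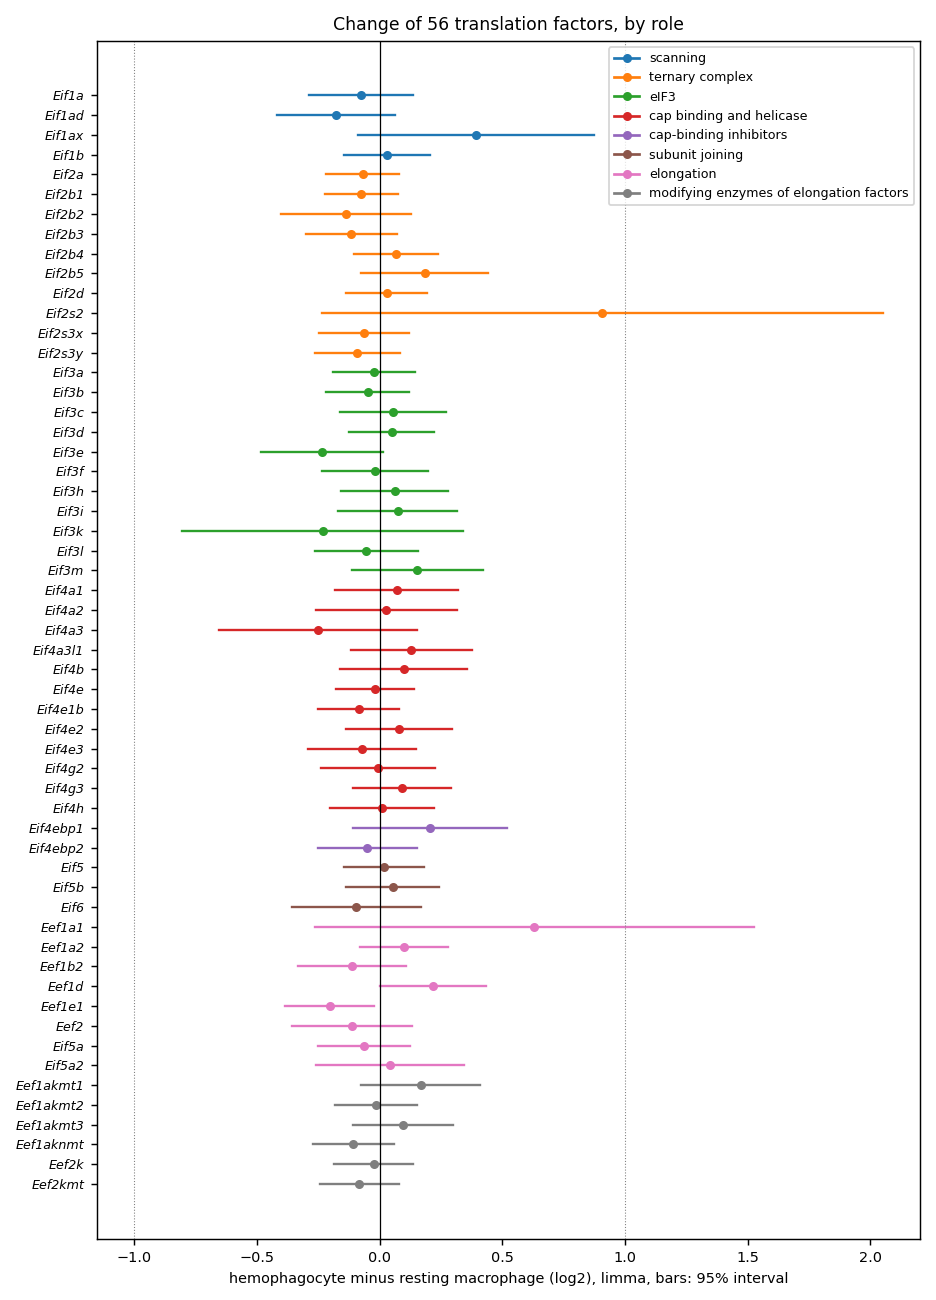
Change of each of the 56 factors (x axis, log2, hemophagocyte minus resting macrophage) with its 95% interval from limma, grouped by role in colour, with dotted lines at plus and minus 1. Most points lie close to 0 with narrow intervals, and Eif2s2 and Eef1a1 have the largest changes, at 0.91 and 0.63, and the widest intervals. Where the signal is low, a narrow interval does not exclude a change of the transcript.

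Signals of most factors were low on these arrays, as were those of the whole table. The median over the factors was 6.16 to 6.18 on hemophagocyte arrays and 6.18 to 6.20 on resting arrays. Over all genes it was 6.22 to 6.30 on hemophagocyte arrays and 6.29 to 6.30 on resting arrays. Background was gauged from 1194 genes of olfactory and vomeronasal receptors, which belong to sensory neurons. These receptor genes had 95th percentiles of 7.42 to 7.72 on hemophagocyte arrays and 7.69 to 7.81 on resting arrays. Only 1 factor lay above that level on all 8 arrays (Eif4e1b), 4 did so on some arrays (Eef1a1, Eef2k, Eef2kmt and Eif2s2), and 51 on none, as read from the probe set used for each. With every single-gene probe set counted, 49 were above it on none, since other probe sets of Eif4e and Eif5a exceeded it on 1 array each. A further measure was the receptor genes' mean, 5.75 to 6.07 on hemophagocyte arrays and 5.99 to 6.16 on resting arrays. On every array 18 factors lay below it. These were Eef1akmt2, Eef1akmt3, Eef1b2, Eif1ax, Eif2b2, Eif2b4, Eif2b5, Eif2s3x, Eif2s3y, Eif3a, Eif3b, Eif3f, Eif3h, Eif3l, Eif4a2, Eif4g2, Eif4h and Eif5. Neither measure was counted over all genes, so these counts do not set the factors apart from other genes. Probe sets differ in how brightly they report a transcript, so the counts also do not order the factors. They mean that for those 18 it cannot be told whether the transcript was detected. Nor was detection shown for the other factors that stayed below the 95th percentile on every array. The labelled cell type was checked in the same way. Of macrophage markers, Cd68 stood at 7.21 to 10.52 in hemophagocytes and 7.29 to 7.50 in resting macrophages, and Csf1r, the receptor for macrophage colony-stimulating factor, stood at 6.06 to 6.46 in hemophagocytes and 6.33 to 6.48 in resting macrophages. Cd68 was above the 95th percentile of the receptor genes on hemophagocytes 3 and 5 and on no other array, and Csf1r on none. Of all 15 markers, 0 were above it on all 8 arrays, 6 on some (Cd68, C1qa, C1qb, C1qc, Hmox1 and Lyz2) and 9 on none. The number above it was 1, 5, 6 and 0 for hemophagocytes 2, 3, 5 and 6, against 1, 2, 1 and 0 for resting macrophages 3, 4, 5 and 6. Most of the listed markers thus gave no signal above this level in either group.

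Among the elongation factors, Eef1a1, which carries aminoacyl-tRNAs to the ribosome, had the largest change. It was read from its only single-gene probe set, so no other could be compared, and probe sets it shares with other genes were not used. It stood at 7.44, 9.37, 9.14 and 7.40 on hemophagocytes 2, 3, 5 and 6, and at 7.70, 7.57, 7.79 and 7.76 on resting macrophages 3, 4, 5 and 6. Hemophagocytes 3 and 5 were high, while hemophagocytes 2 and 6 lay below all resting arrays. The means were 8.34 ± 1.06 in hemophagocytes and 7.71 ± 0.10 in resting macrophages (log2, mean ± SD, n = 4 each), a change of 0.63 (SE 0.40, 95% interval -0.26 to 1.52, limma adjusted p = 0.76). Without hemophagocytes 3 and 5 the change turned to -0.29. Over all genes, 31 (0.155%) had both of these arrays more than 1 log2 unit above the other 6, and Eef1a1 was the 1 factor among them.

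Other transcripts were high on the same arrays. The macrophage glycoprotein gene Cd68 reached 9.66 and 10.52 on hemophagocytes 3 and 5, and the platelet chemokine Pf4 reached 10.35 and 9.11, against 6.10 and 5.49 for Pf4 on hemophagocytes 2 and 6 and 6.61 to 7.41 on resting arrays. All platelet markers together (4 of 5 measured) had a mean level of 6.15 to 7.30 on hemophagocyte arrays and 6.42 to 6.69 on resting arrays. This spread came from Pf4, because Ppbp, Itga2b and Gp9 together had means of 6.29 to 6.40 on hemophagocyte arrays and 6.35 to 6.45 on resting arrays, and Ppbp was lowest on hemophagocyte 3. The neutrophil alarmin gene S100a8 had 4.60, 8.02, 6.41 and 5.12 in hemophagocytes, against 4.86 to 5.02 in resting macrophages. Its partner S100a9 had 6.35, 9.12, 6.01 and 7.33 in hemophagocytes, against 6.12 to 6.34 in resting macrophages, so that hemophagocyte 3 was high for both and hemophagocyte 5 for S100a8. The other 6 neutrophil markers had means of 6.47 to 6.70 on hemophagocyte arrays and 6.65 to 6.73 on resting arrays. For the macrophage markers (15 of 15 measured) the mean level was 6.44 to 7.46 on hemophagocyte arrays and 6.57 to 6.73 on resting arrays. The list was not uniform. C1qc reached 8.57 and 9.58 on hemophagocytes 3 and 5, and Lyz2 reached 9.95 and 9.96. Vcam1 (6.38), Spic (5.57), Cd163 (5.51), Slc40a1 (5.73) and Hmox1 (6.77) had their lowest value of all 8 arrays on hemophagocyte 3. On hemophagocyte 5, Vcam1 (6.76), Cd163 (6.01) and Hmox1 (7.98) had their highest. The part of these transcripts in the Eef1a1 values was not tested.

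Eef1e1, a scaffold protein of the aminoacyl-tRNA synthetase complex that is named with the elongation factors, had the smallest p of all 56. Hemophagocytes 2, 3, 5 and 6 had 7.04, 6.99, 7.12 and 7.28, and resting macrophages 3 to 6 had 7.38, 7.28, 7.22 and 7.35. Hemophagocyte 6 lay inside the resting range and the other 3 lay below it. The change was -0.20 (SE 0.08, fold 0.87, unadjusted p = 0.031, limma adjusted p = 0.75), with an interval of -0.38 to -0.02.

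Eef1d, a subunit of the exchange factor that recharges eEF1A with GTP, had the next smallest p. Its values were 7.21, 7.25, 7.47 and 7.14 on the hemophagocyte arrays and 6.84, 7.04, 7.18 and 7.14 on the resting arrays. Hemophagocytes 2, 3 and 5 exceeded every resting array, and hemophagocyte 6 did not. The change was 0.22 (SE 0.10, interval -0.00012 to 0.43, adjusted p = 0.75).

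Eef1b2, another subunit of the same exchange factor, had a change of -0.11, from a probe set below the receptor genes' mean on every array. Eef2, the translocation factor, had 6.52, 6.49, 6.54 and 6.16 in hemophagocytes and 6.46, 6.80, 6.48 and 6.43 in resting macrophages. Hemophagocyte 6 was lowest and resting macrophage 4 highest, and the other 6 arrays lay within 6.43 to 6.54. Its change of -0.11 (interval -0.36 to 0.13, adjusted p = 0.83) was -0.03 without resting macrophage 4. Eef1a2, the eEF1A form known from muscle and neurons, had a change of 0.10, and the hypusine-bearing factors Eif5a and Eif5a2 changes of -0.06 and 0.04. Of the 8 genes of elongation, 4 had a change above 0, 4 below, and 0 passed.

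The enzymes that modify elongation factors gave 2 of 6 changes above 0, and 0 passed. Eef1akmt1, a lysine methyltransferase of eEF1A, stood at 5.60, 5.85, 6.12 and 5.94 in hemophagocytes and 5.87, 5.74, 5.63 and 5.60 in resting macrophages, with hemophagocytes 5 and 6 above the resting range (change 0.17, adjusted p = 0.76). Eef1aknmt, which methylates eEF1A at its amino terminus and at a lysine, had 6.14, 6.00, 6.13 and 6.15 in hemophagocytes and 6.20, 6.12, 6.35 and 6.17 in resting macrophages (change -0.11, adjusted p = 0.77). Here hemophagocyte 3 was lowest and resting macrophage 5 highest. Eef2k, the kinase that inhibits eEF2, was nearly level at 7.74 ± 0.08 in hemophagocytes and 7.77 ± 0.08 in resting macrophages. Its 95% interval was -0.18 to 0.14. The methyltransferases Eef2kmt, Eef1akmt2 and Eef1akmt3 had changes of -0.08, -0.02 and 0.09.

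Several elongation and eIF3 genes belong to the class of 5′ terminal oligopyrimidine (TOP) messengers, whose translation follows mTOR signalling and which share a pyrimidine run at the start of the transcript. Of 9 such factors listed from general knowledge, 8 were measured, 4 with a change above 0 and 4 below, with a median of 0.02, and 0 passed. The start sites of the 5 that had an entry in RefSeq's table (GRCm38.p6) are shown because that shared feature defines the class, each as 10 bases before and 20 after the annotated start, with capitals marking a C followed by at least 4 C or T that begins within 5 bases of it.
Eef1b2: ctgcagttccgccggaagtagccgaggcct
Eif3f: tctaggCTCTCTCTCTTTCTCggcaagatg
Eef1a1: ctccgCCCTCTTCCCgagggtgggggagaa
Eef2: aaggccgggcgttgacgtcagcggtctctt
Eif4b: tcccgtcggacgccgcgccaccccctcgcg
They lie at chr1:63176821-63176850 (plus strand) for Eef1b2, chr7:108934405-108934434 (plus) for Eif3f, chr9:78481705-78481734 (minus) for Eef1a1, chr10:81176621-81176650 (plus) for Eef2 and chr15:102073763-102073792 (plus) for Eif4b. Read on the gene's own strand, 2 of the 5 held such a run, as did 10 of the 43 factors with an entry (23.3%) and 21.2% of all 27025 genes with one. Absence of these letters at an annotated start says nothing on the messenger's true 5′ end. The 2 genes with the run had unlike values, since Eef1a1 was high on hemophagocytes 3 and 5 and Eif3f was not, with 5.43, 5.36, 5.17 and 5.26 in hemophagocytes and 5.54, 5.19, 5.17 and 5.38 in resting macrophages.

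**Figure D2:**
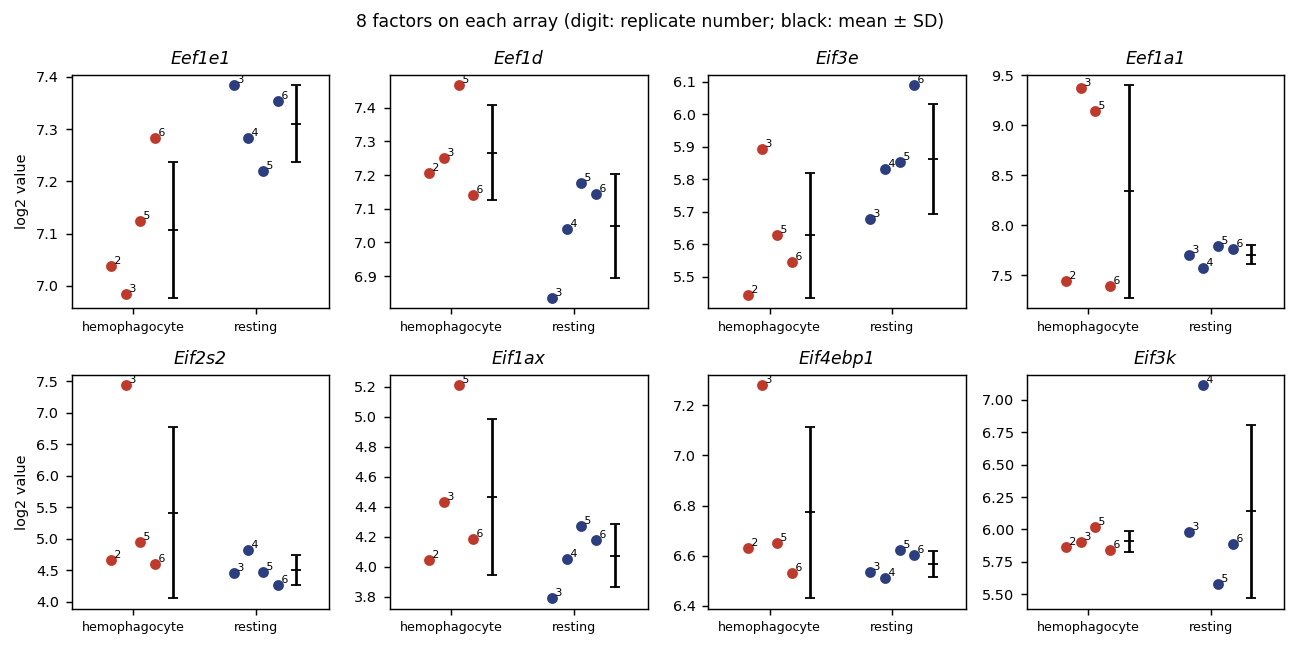
Log2 value (y axis, scaled separately for each gene) of 8 factors on each array, hemophagocytes left and resting macrophages right, with the replicate number beside each point and the mean ± SD in black (n = 4 each). In Eef1a1, Eif2s2, Eif1ax and Eif4ebp1 replicates 3 or 5 are the high hemophagocyte arrays, in Eif3k replicate 4 is the high resting array, and the groups overlap in all 8 genes.

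Of the 4 genes related to eIF1 and eIF1A, which find the start codon, 2 had a change above 0 and 2 below. Eif1ax, the X-linked gene of eIF1A, had 4.04, 4.43, 5.21 and 4.18 in hemophagocytes and 3.79, 4.05, 4.27 and 4.18 in resting macrophages. All of these values lay below the receptor genes' mean of the same array. Hemophagocyte 5 was high, and the next highest array was hemophagocyte 3. The change of 0.39 (SE 0.22, interval -0.09 to 0.88, adjusted p = 0.75) was 0.15 without hemophagocyte 5. Eif1ad, a related protein, had 6.46, 6.36, 6.90 and 6.65 in hemophagocytes and 6.74, 6.71, 6.77 and 6.87 in resting macrophages. Hemophagocytes 2, 3 and 6 were below the resting range and hemophagocyte 5 above it (change -0.18, adjusted p = 0.75). Eif1a had a change of -0.08 and Eif1b one of 0.03.

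The eIF2 group holds subunits of eIF2, which carries the initiator tRNA, and the eIF2B complex that reloads eIF2 with GTP. It also holds the separate proteins Eif2a and Eif2d, which can also bring tRNA to the ribosome. Eif2s1, the alpha subunit of eIF2, was not among the factors analysed. Of the 10 that were, 4 had a change above 0, 6 below, and 0 passed. Eif2s2, the beta subunit of eIF2, had the largest change of any factor, as read from the probe set used for each. It stood at 4.67, 7.43, 4.95 and 4.60 in hemophagocytes and at 4.46, 4.83, 4.48 and 4.26 in resting macrophages. Hemophagocyte 3 alone was high, and the other 7 arrays lay between 4.26 and 4.95. The change of 0.91 (SE 0.52, interval -0.24 to 2.05, limma adjusted p = 0.75) was 0.24 without that array. A further probe set of the gene did not share the high value, reading 4.21 on hemophagocyte 3, its lowest array, and 4.27 to 4.95 elsewhere. By that probe set the change was -0.16. Among all genes, 28 (0.14%) had hemophagocyte 3 more than 2 log2 units above every other array.

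The gamma subunits of eIF2 were close between the groups. The mean of Eif2s3x was 5.33 ± 0.01 on hemophagocyte arrays and 5.39 ± 0.16 on resting arrays. For its Y-linked copy Eif2s3y it was 3.59 ± 0.11 on hemophagocyte arrays and 3.68 ± 0.09 on resting arrays. Both lay below the receptor genes' mean on every array.

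Of the eIF2B subunits, Eif2b5, the catalytic epsilon subunit, had 5.87, 5.39, 5.85 and 5.57 in hemophagocytes and 5.68, 5.40, 5.39 and 5.46 in resting macrophages. Hemophagocytes 2 and 5 were above the resting range, and hemophagocyte 3 was about level with its lowest array (change 0.18, adjusted p = 0.76). Eif2b3, the gamma subunit, had 6.41, 6.43, 6.56 and 6.67 in hemophagocytes and 6.54, 6.59, 6.77 and 6.62 in resting macrophages, and only hemophagocytes 2 and 3 were below the resting range (change -0.12, adjusted p = 0.77). Eif2b2, the beta subunit, had 4.39, 4.22, 4.58 and 4.79 in hemophagocytes and 4.48, 4.70, 4.77 and 4.58 in resting macrophages. Its highest and lowest arrays were both hemophagocytes, and its change ran from -0.24 without hemophagocyte 6 to -0.05 without hemophagocyte 3 (all arrays -0.14, adjusted p = 0.80). The regulatory subunits Eif2b1 and Eif2b4 had changes of -0.07 and 0.07, and Eif2a and Eif2d changes of -0.07 and 0.03. Of the genes in this paragraph, Eif2b2, Eif2b4 and Eif2b5 lay below the receptor genes' mean on every array.

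The eIF3 complex, the largest initiation factor and a platform on the small subunit, had 11 measured genes, 5 with a change above 0 and 6 below, with a median of -0.02. Eif3e had the smallest p of them, with 5.44, 5.89, 5.63 and 5.55 in hemophagocytes and 5.68, 5.83, 5.85 and 6.09 in resting macrophages. Hemophagocytes 2, 5 and 6 lay below all resting arrays, and hemophagocyte 3 lay above 3 of them. The change was -0.24 (SE 0.11, interval -0.49 to 0.02, adjusted p = 0.75). Eif3k, a small peripheral subunit, had 5.86, 5.91, 6.02 and 5.84 in hemophagocytes and 5.98, 7.11, 5.58 and 5.89 in resting macrophages. Resting macrophage 4 alone was high, and without it the change of -0.23 (adjusted p = 0.85) turned to 0.09.

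Eif3m had 7.02, 6.47, 6.59 and 6.46 in hemophagocytes and 6.50, 6.38, 6.62 and 6.42 in resting macrophages, with hemophagocyte 2 highest. Its change of 0.15 (adjusted p = 0.79) was 0.03 without that array, and a dimmer probe set of the gene had a change of -0.22. Of the 11 genes, 0 passed. The core subunits Eif3a, Eif3b and Eif3c had changes of -0.02, -0.05 and 0.05, and Eif3d, which can itself bind the cap, one of 0.05. Changes of the others were -0.02 for Eif3f, 0.06 for Eif3h, 0.07 for Eif3i and -0.05 for Eif3l.

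The cap-binding and helicase group had 12 genes, 7 with a change above 0 and 5 below, with a median of 0.02, and 0 passed. Eif4e, the main cap-binding protein, had means of 6.25 ± 0.06 on hemophagocyte arrays and 6.27 ± 0.09 on resting arrays, with a change of -0.02 (interval -0.18 to 0.14). One of its dimmer probe sets read 7.78 on hemophagocyte 3, where the other 7 arrays gave 5.35 to 5.90. The probe set used here, at 6.26 on hemophagocyte 3, and the third, at 4.70, did not share that value. The cap-binding relatives Eif4e2, Eif4e3 and Eif4e1b, the last known from oocytes, had changes of 0.08, -0.07 and -0.09.

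Eif4a1 and Eif4a2, the helicases of cap-dependent initiation, had changes of 0.07 and 0.03. All 3 probe sets of Eif4a1 lay between changes of -0.10 and 0.11. Eif4a3, the related helicase of the exon junction complex, had 5.38, 5.84, 6.32 and 6.34 in hemophagocytes and 6.13, 6.22, 6.31 and 6.22 in resting macrophages. Hemophagocytes 2 and 3 were low, and the change of -0.25 (SE 0.18, adjusted p = 0.77) was -0.06 without hemophagocyte 2. Eif4a3l1, a gene closely related to Eif4a3, had 5.96, 6.25, 5.90 and 5.72 in hemophagocytes and 5.82, 5.90, 5.66 and 5.94 in resting macrophages, a change of 0.13 (adjusted p = 0.80), which was 0.03 without hemophagocyte 3. Both genes also occur in probe sets annotated to several genes, which were not used. Whether the single-gene probe sets share signal between the 2 genes was not tested.

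The helicase cofactors Eif4b and Eif4h had changes of 0.10 and 0.01, and the scaffold proteins Eif4g2 and Eif4g3 changes of -0.01 and 0.09. Eif4ebp1, which sequesters eIF4E until mTOR phosphorylates it, stood at 6.63, 7.28, 6.65 and 6.53 in hemophagocytes and 6.53, 6.51, 6.62 and 6.60 in resting macrophages. Hemophagocyte 3 alone was high, and the change of 0.20 (SE 0.14, interval -0.11 to 0.52, adjusted p = 0.77) was 0.04 without it. Eif4ebp2, the other measured inhibitor, had a change of -0.05. Of the factors of subunit joining, Eif5, which triggers GTP hydrolysis on eIF2, had a change of 0.02, Eif5b one of 0.05, and Eif6, which keeps free large subunits from joining, one of -0.10.

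**Figure D3:**
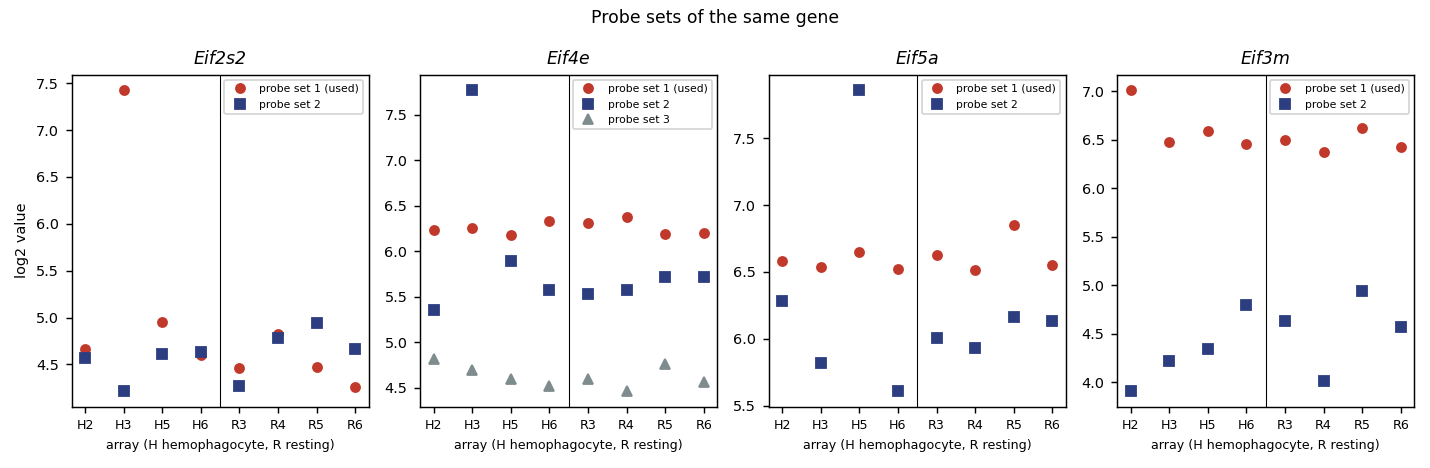
Log2 value (y axis) of each single-gene probe set of Eif2s2, Eif4e, Eif5a and Eif3m on the 4 hemophagocyte arrays (left of the line) and the 4 resting arrays (right), with "used" marking the probe set that stands for the gene. In Eif2s2 and Eif4e a value over 7 on hemophagocyte 3, and in Eif5a a value of 7.86 on hemophagocyte 5, appears in 1 probe set and not in the others of the gene.

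Isolated high values in 1 probe set recurred among the 7 factors with several probe sets. In addition to Eif2s2 and Eif4e, a dimmer probe set of Eif5a read 7.86 on hemophagocyte 5, where the other 7 arrays gave 5.61 to 6.29, while the one used here had 6.58, 6.54, 6.65 and 6.52 in hemophagocytes and 6.63, 6.52, 6.85 and 6.55 in resting macrophages. The probe sets of each of these 3 genes therefore disagreed on whether an array was high. The positions of the probes were not used here, and whether signal came from copies of these genes elsewhere in the genome was not tested.

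Set against the median of the same gene across the 8 arrays, high values were concentrated on hemophagocytes 3 and 5. More than 1 log2 unit above it were Eef1a1 and Eif2s2 on hemophagocyte 3 (3.57% of factors, 0.772% of all genes), Eef1a1 and Eif1ax on hemophagocyte 5 (3.57% of factors, 0.797% of all genes) and Eif3k on resting macrophage 4 (1.79% of factors, 0.0802% of all genes). No factor was that high on hemophagocytes 2 and 6 or on resting macrophages 3, 5 and 6, and 0 factors were that low on any of the 8 arrays. The within-group SD had a median over factors of 0.14 in hemophagocytes and 0.12 in resting macrophages, against 0.13 in hemophagocytes and 0.11 in resting macrophages over all genes. The hemophagocyte SD was the larger in 32 of 56 factors (57.1%) and in 60.3% of all genes.

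**Figure D4:**
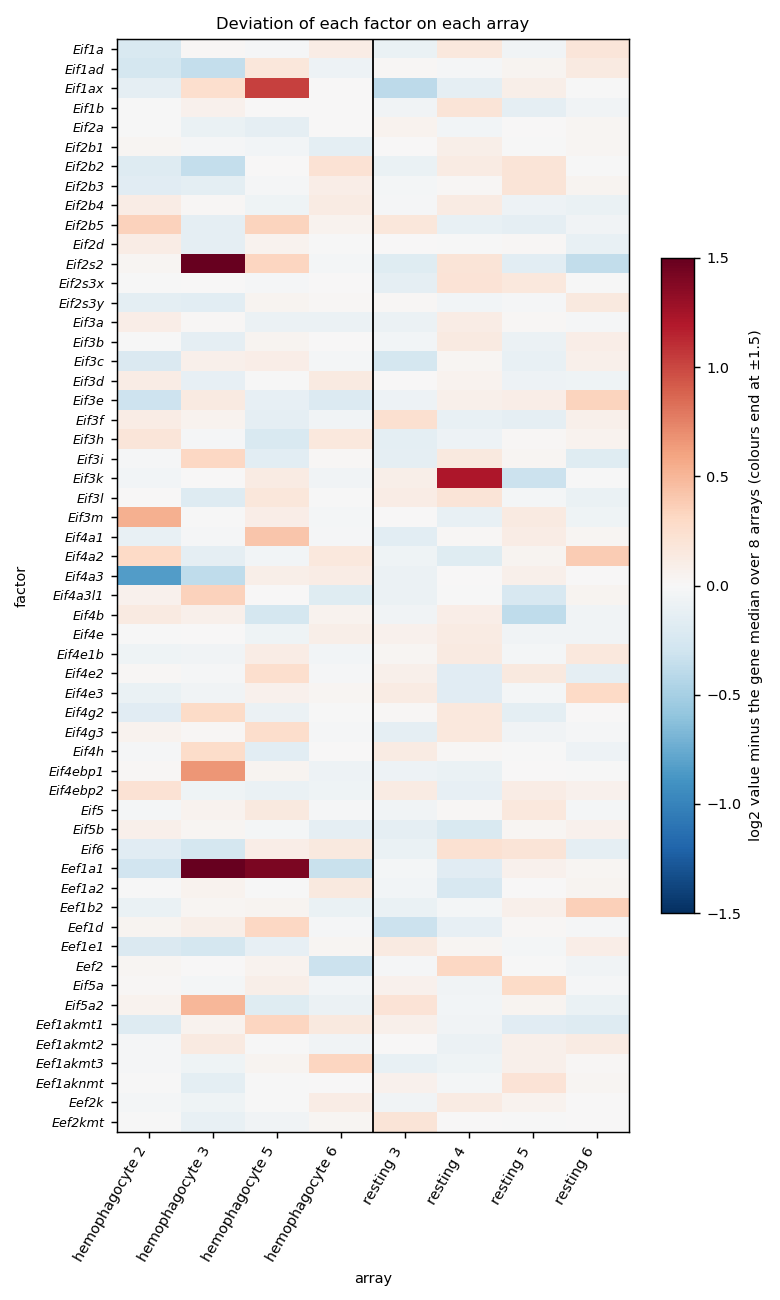
Deviation of each of the 56 factors (rows, grouped by role) on each array (columns, hemophagocytes left of the line) from the median of that gene across the 8 arrays, in log2 units with colours ending at plus and minus 1.5. The strongest colour appears in single cells, Eef1a1 on hemophagocytes 3 and 5, Eif2s2 on 3, Eif1ax on 5 and Eif3k on resting macrophage 4. Weaker ones include Eif4a3 on hemophagocyte 2, the lowest at -0.84, and Eif4ebp1 on hemophagocyte 3, at 0.67. No column or group of rows is coloured throughout.

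Other genes of translational control gave no calls either. Of 32 listed regulators and partners, among them the eIF2 kinases, poly(A)-binding proteins, release factors and mTOR pathway genes, 30 were measured, 13 with a change above 0 and 17 below, with a median of -0.02, and 0 passed. At an unadjusted p under 0.05, 1 of the 30 was higher (1.53% of all genes) and 0 were lower (5.05% of all genes). The higher gene was Ppp1r15a, the stress-induced partner of the phosphatase that reverses eIF2 phosphorylation. It had 6.22, 6.08, 5.99 and 6.04 in hemophagocytes and 5.79, 5.94, 5.90 and 6.01 in resting macrophages (change 0.18, SE 0.08, limma adjusted p = 0.75). Hemophagocyte 5 lay below resting macrophage 6, so the groups overlapped.

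Next by p were Eif2ak2, the double-stranded RNA-activated eIF2 kinase PKR, with a change of -0.21, the stress transcription factor Ddit3 with 0.16 and the helicase Dhx29 with 0.14, all at adjusted p = 0.75. In Pdcd4, an inhibitor of eIF4A named here because it was the 1 gene of the list whose groups did not overlap, hemophagocyte arrays lay at 4.12 to 4.27 and resting arrays at 4.01 to 4.11 (change 0.09). Over all genes, 0.802% had groups apart in that direction and 2.9% in the other. All 9 mitochondrial translation factors were measured, 4 with a change above 0 and 5 below, within -0.10 to 0.12, and 0 passed. The largest of these changes was that of Tsfm, the exchange factor of mitochondrial elongation.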

How the data were processed

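Each of 8 RNA samples (4 hemophagocyte, 4 resting macrophage) was hybridised to 1 Affymetrix mouse Gene ST 1.0 array, and groups and numbers follow the sample titles. The deposited values are log2 expression values, as judged from their range, and per the submitters' processing notes Affymetrix Expression Console 1.1 was used. The handling of background, probe summary and normalization was not given in the sources used here. No further scaling was applied. Of 35556 probe sets, 21789 had 1 gene symbol, 1621 several and 12146 none. Only the first kind was used, with the highest mean over the arrays standing for a gene, which left 19938 genes. The symbols of all 56 factors matched RefSeq's gene table.

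The comparison used lmFit and eBayes of limma 3.58.1 under R 4.3.3, without a block or filter, with adjustment over all genes. The script was checked on simulated data. The labels give 20 cells per mouse but do not name the mouse behind each array, so it is not known whether each array is a separate mouse. The p-values therefore reflect only the spread among these arrays, which may be technical. The number of arrays limits the precision. Every factor analysed is named. By rule, all 8 values are given for the 6 of smallest p in each direction and the 6 of largest remaining change. Outside it, those of Eif3f and Eif5a are given beside the start sites and the probe sets. The set of factors, although its rule uses names alone, and the other lists were chosen with earlier results of these data known.

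Alternatives were 3 normalizations, a filter on dim genes, the mean of all probe sets, array weights, a robust prior with an intensity trend, each array left out, and the replicate number as a block. Other fits were added after the data had been seen, namely 1 without hemophagocytes 3 and 5, 1 without hemophagocyte 2 and resting macrophage 3, and 1 with array background as a covariate.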

Additional observations from a re-analysis of the deposited data

Results flagged for a closer look

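Within groups of 4 arrays, 10 of 112 tests (56 factors in 2 groups) had 1 array whose gap to the nearest other exceeded 0.829 of the group's range, Dixon's 95% value, where chance gives about 1 in 20, or 5.6. Over all 19938 genes the same gap was found in 5.55% of tests, against 8.93% over the factors. Of the factors' 10, 8 were in hemophagocytes (14.3% of factors, 5.75% of all genes) and 2 in resting macrophages (3.57% of factors, 5.35% of all genes). Hemophagocyte 3 was high for Eif2s2 (7.43, the others 4.60 to 4.95), Eif4ebp1 (7.28, the others 6.53 to 6.65) and Eif1b (6.32, the others 6.25 to 6.26), and low for Eef1aknmt (6.00, the others 6.13 to 6.15). Hemophagocyte 5 was high for Eif4e2 (6.82, the others 6.55 to 6.58) and Eif4e1b (7.89, the others 7.72 to 7.74). Hemophagocyte 2 was high for Eif4ebp2 (6.28, the others 5.97 to 6.00), and hemophagocyte 6 was low for Eef2 (6.16, the others 6.49 to 6.54). Among resting arrays, number 4 was high for Eef2 (6.80, the others 6.43 to 6.48) and number 3 for Eef2kmt (7.96, the others 7.77 to 7.78). Apart from Eif2s2 and Eif4ebp1, the gap to the nearest other array was at most 0.33 log2 units in each.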

How the results depend on the processing

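The count of 0 factors called by limma held in all 19 alternatives, with adjusted p of at least 0.58 for every factor in each. At an unadjusted p under 0.05 the count of higher factors ran from 0 to 3 and of lower factors from 0 to 3. Over all genes tested, 175 to 602 were higher and 474 to 1245 lower, against 306 and 1006 in the main fit. The 175 came from the fit of genes above the median level, which held fewer genes and 24 of the 56 factors. Over all genes, 2 were called, against 1 with median centring, cyclic loess, the intensity trend with robust prior, or the background covariate, 7 with the replicate number as a block, 5 without hemophagocyte 2 and resting macrophage 3, and 1 to 11 when single arrays were left out (11 without hemophagocyte 2). The factors' median change of -0.01 was 0.034 with quantile normalization, 0.019 with median centring, 0.035 with cyclic loess, 0.0028 among genes above the median level (24 factors), 0.016 with the mean of all probe sets, 0.0033 with the replicate block, -0.025 without hemophagocytes 3 and 5, and -0.018 to 0.013 with single arrays left out. Of 332 alternative values of the 18 factors shown in full, 323 kept their sign and 9 reversed. These were Eif3m with the mean of all probe sets (-0.033) and with the replicate block (-0.0073), Eif3k with the block (0.11) and without resting macrophage 4 (0.092, with a range of -0.42 to 0.092 when single arrays were left out), Eef1a1 without hemophagocytes 3 and 5 (-0.29), and, with the background covariate, Eif2s2 (-0.078), Eif4ebp1 (-0.043), Eif2b2 (0.081) and Eif4a3l1 (-0.039). The cause was not tested. Same-numbered arrays had deviations correlated at 0.17, 0.066 and 0.12 for numbers 3, 5 and 6. Hemophagocytes 3 and 6 matched the resting array of their own number best, and hemophagocyte 5 matched resting macrophage 6 best. These values do not settle whether the numbers pair the samples, and the main fit used no pairing. Low signal limits what the 49 factors can show that had no probe set above the receptor genes' 95th percentile on any array.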

Other observations

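Among the other genes of translational control, Rps6 and Tpt1 varied widely between arrays of the same group. These genes were chosen after their values were seen. Rps6, a small-subunit protein that is phosphorylated downstream of mTOR, stood at 6.74, 10.03, 7.74 and 7.61 on hemophagocytes 2, 3, 5 and 6 and at 9.47, 10.37, 7.83 and 7.11 on resting macrophages 3, 4, 5 and 6 (change -0.67, SE 0.77, limma adjusted p = 0.85). High and low arrays occurred in both groups. Tpt1, the translationally controlled tumor protein and another TOP messenger, stood at 10.72, 11.02, 10.94 and 10.23 on hemophagocytes 2, 3, 5 and 6 and at 9.86, 9.80, 11.75 and 11.12 on resting macrophages 3, 4, 5 and 6 (change 0.09, SE 0.39). Here the resting arrays held both the highest and the lowest value.

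Eif4e1b, the factor that lay above the 95th percentile of the receptor genes on all 8 arrays, is known from oocytes. Its probe set averaged 7.77 ± 0.08 in hemophagocytes and 7.86 ± 0.09 in resting macrophages (n = 4 each), and a dimmer probe set of the gene averaged 5.69 ± 0.34 in hemophagocytes and 5.51 ± 0.29 in resting macrophages.

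Markers of other cells that a spleen pool could hold gave 0 calls by limma. The median change was -0.01 for T cells (6 of 8 measured), -0.01 for B cells (6 of 7) and -0.05 for plasma cells (6 of 6). It was -0.22 for NK cells (6 of 6) and -0.05 for neutrophils (8 of 8, with S100a8 at 1.12 and S100a9 at 0.98). For erythroid cells (4 of 7) it was -0.01, and for platelets (4 of 5) 0.03. An unadjusted p under 0.05 was found for Cd28 (1 of 6 T cell markers) and for Klrd1 and Gzma (2 of 6 NK cell markers). All 3 were lower in hemophagocytes, as were 5.05% of all genes at that p. No T, B, plasma or NK cell marker exceeded the receptor-gene background level used for the macrophage markers on any array. Detection of the NK cell transcripts was thus not shown. Retnlg, S100a8, S100a9, Epor and Pf4 exceeded that level on some arrays.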
